A study of Nematostella vectensis with 10 samples.

Results

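The genes *NVE334*, *NVE20972*, *NVE1550* and *NVE2283* encode G protein-coupled receptors (GPCRs) for which the study names no ligand. *NVE334* and *NVE20972* are annotated there as rhodopsin-family receptors, and *NVE1550* and *NVE2283* as GPCRs without a family. The study also grouped its apically enriched GPCRs by sequence, most of them with rhodopsin receptors. Its text does not say where these genes fall in that grouping. The 4 genes were taken by identifier, and the study's heatmap of neuronal genes, which also holds other receptors, places them on the apical side. The count files hold 25729 gene models, of which these are 4. The heatmap was drawn from the same libraries, so the apical direction of these genes is not independent evidence. The choice also favours a large difference, so its size and spread are given as descriptions. The effect of age is a separate question.

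RNA came from planulae, the ciliated swimming larvae of the sea anemone *Nematostella vectensis*, cut into an apical (aboral) piece that carries the apical organ and the rest of the larva, called the body. Late planulae, at 75 to 85 h after fertilisation, gave 3 libraries of apical tissue and 3 of body tissue. Mid-planulae, at 50 to 60 h, gave 2 of each. No treatment or genetic change is named in the labels for any group. Each library was a pool of many larvae from several batches, so the spread between libraries is that of pools and not of single larvae. Libraries carry replicate numbers within a stage, but the labels do not say that the same number marks one set of larvae.

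GPCRs are membrane proteins that bind a signal outside the cell and switch on heterotrimeric G proteins inside it. The rhodopsin family is the largest branch in animals and holds the opsins and the receptors for biogenic amines and for many neuropeptides. In ciliated larvae of many phyla the apical organ is a sensory structure with neurosecretory cells around it. A receptor whose ligand is unknown is called an orphan.

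The total counts of the libraries were 14364093 to 27730410, and levels are counts per 1000000 after scaling with TMM factors (trimmed mean of M-values), written CPM. A floor for low levels, set at 3 counts, lay at 0.104 to 0.223 CPM and covers counting error only. The labels were compared with cell markers that the study names in its text. The tuft and neuron markers were chosen there among genes enriched in these apical libraries, so their direction is no independent check. All 6 apical tuft (spot) markers and all 3 larva-specific neuron (ring) markers were higher in the apical tissue, and all 4 markers of gland cell type 4, which lies in the pharynx and mesentery, were lower there (edgeR's quasi-likelihood test, adjusted p under the 0.05 threshold). The gland cell type 4 markers summed to 6.63 to 25.3 CPM in the apical libraries and 1181 to 3370 CPM in the body libraries, and none of the markers was at 0 in every library of a tissue. In such bulk samples, fewer cells of a type and less RNA per cell cannot be told apart.

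All 4 receptor genes were detected in every library and passed the filter on low counts, with 26 to 757 counts per library. In the comparison of the 5 apical with the 5 body libraries, all 4 of 4 were higher in the apical tissue in the quasi-likelihood test of edgeR (adjusted after Benjamini and Hochberg over 21683 genes). Of all tested genes, 5.43% were called higher. Since the genes were placed on the apical side with these libraries, the count is given as a description. The median log2 fold change was 1.45 over the receptor genes and -0.04 over all tested genes. The sizes differed widely, as the apical level was 6.15 times the body level for *NVE334*, 3.54 times for *NVE1550*, 2.12 times for *NVE20972* and 1.67 times for *NVE2283*.

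**Figure D1:**
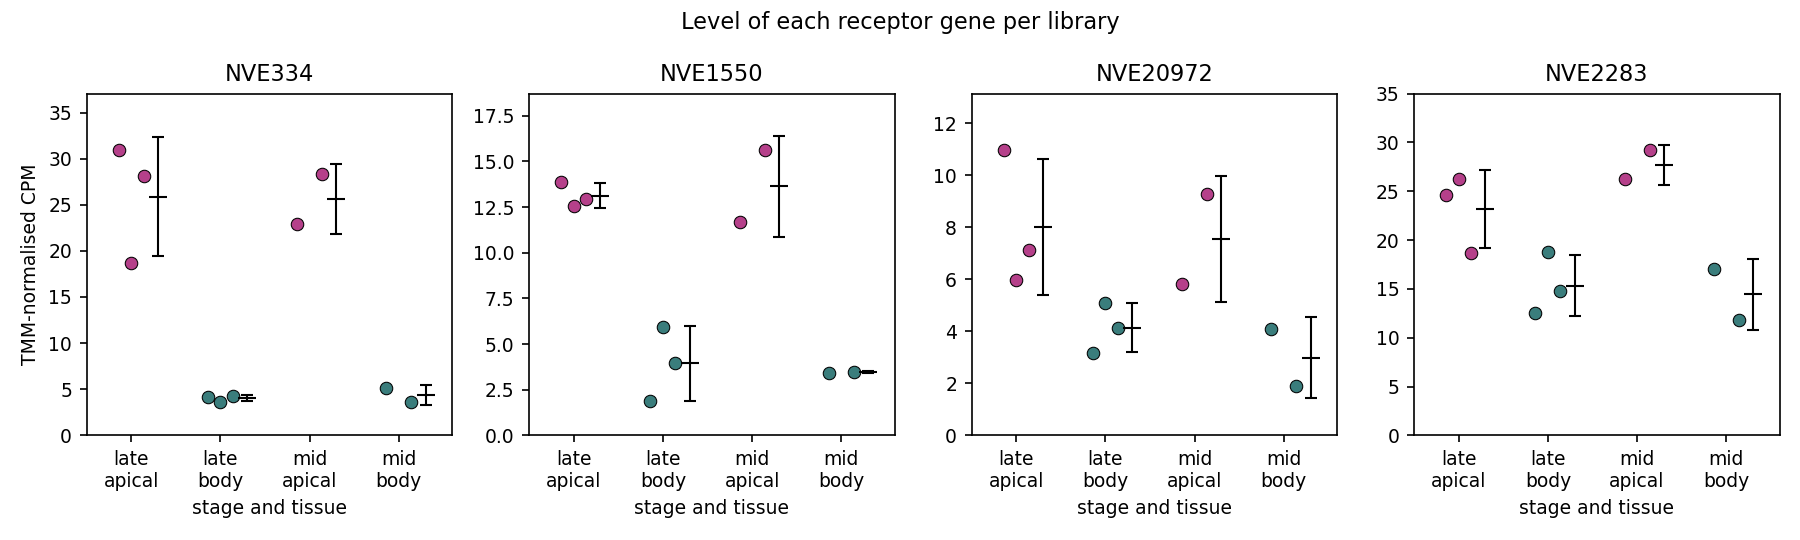
TMM-normalised CPM (vertical axis, from 0) of each receptor gene in the apical and body libraries of late and mid-planulae. Each point is a library, and the bar beside the points is the mean with its SD (n = 3 per late planula group, n = 2 per mid-planula group). For *NVE334* the apical libraries lie at 18.6 to 30.9 CPM and the body libraries at 3.58 to 5.18 CPM, while for *NVE2283* the lowest apical library (18.7 CPM) meets the highest body library (18.7 CPM).

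The rhodopsin-family receptor gene *NVE334* showed the clearest separation. In the late planula it had 30.9, 18.6 and 28.1 CPM in apical replicates 1, 2 and 3, against 4.19, 3.64 and 4.30 CPM in the body replicates. In the mid-planula it had 22.9 and 28.3 CPM in the apical tissue, against 5.18 and 3.58 CPM in the body. Every apical library lay far above the highest body library, and the lowest apical value came from late planula replicate 2. It averaged 25.8 ± 4.93 CPM over the apical libraries, against 4.18 ± 0.643 CPM over the body libraries (SD, n = 5 each). The log2 fold change was 2.62, with a 95% confidence interval of 2.15 to 3.09, and only 0.521% of the tested genes had a larger one. It was called at both stages, with log2 fold changes of 2.68 in the late planula (standard error 0.28, adjusted p = 3.87e-05, edgeR) and 2.54 in the mid-planula (standard error 0.34, adjusted p = 0.000846, edgeR).

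*NVE20972*, the other rhodopsin-family gene, had 96 to 199 counts per apical library and 42 to 113 per body library. Its late planula levels were 11.0, 5.96 and 7.15 CPM in the apical replicates, against 3.18, 5.08 and 4.14 CPM in the body replicates. The mid-planula libraries had 5.83 and 9.27 CPM in the apical tissue, against 4.09 and 1.88 CPM in the body. The apical and body ranges did not overlap, but the gap between the lowest apical library (5.83 CPM) and the highest body library (5.08 CPM) was smaller than the spread within either tissue. It averaged 7.83 ± 2.23 CPM over the apical libraries, against 3.68 ± 1.21 CPM over the body libraries (SD, n = 5 each). The log2 fold change was 1.09 (standard error 0.31, 95% confidence interval 0.43 to 1.75, adjusted p = 0.0343, edgeR).

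The pooled call for *NVE20972* depended on single libraries. It was lost when late planula apical replicate 1 (adjusted p = 0.108, edgeR) or mid-planula apical replicate 2 (adjusted p = 0.0809) was left out, and these are the libraries in which the gene was highest. It was also lost without late planula apical replicate 3 (0.0566), late planula body replicate 1 (0.0669) or 3 (0.0638), or mid-planula body replicate 1 (0.0542) or 2 (0.0697), each an adjusted p-value from edgeR. Its log2 fold change was then 0.92 to 1.13. Within single stages the difference was not called, with an adjusted p of 0.16 in the late planula and 0.184 in the mid-planula (edgeR).

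*NVE1550*, a GPCR gene with no family named, had an even level in the apical tissue and a variable one in the body. Late planula apical replicates had 13.9, 12.5 and 13.0 CPM, against 1.88, 5.94 and 3.99 CPM in the body replicates. Mid-planula libraries had 11.7 and 15.6 CPM in the apical tissue, against 3.44 and 3.49 CPM in the body. The 2 tissues were far apart in every library, since the lowest apical value was 11.7 CPM and the highest body value 5.94 CPM. The coefficient of variation was 11.3% over the 5 apical libraries and 38.9% over the 5 body libraries, and the late planula body held both the lowest (26 counts, replicate 1) and the highest body value (124 counts, replicate 2).

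*NVE1550* averaged 13.3 ± 1.50 CPM over the apical libraries, against 3.75 ± 1.46 CPM over the body libraries (SD, n = 5 each). The log2 fold change was 1.82 (standard error 0.28, 95% confidence interval 1.22 to 2.43, adjusted p = 0.000657, edgeR). It was called in the late planula (log2 fold change 1.72, adjusted p = 0.00753, edgeR) and in the mid-planula (log2 fold change 1.97, adjusted p = 0.0229, edgeR). The mid-planula call was lost without mid-planula apical replicate 2 (adjusted p = 0.172), body replicate 1 (0.169) or body replicate 2 (0.162). These are edgeR fits in which the remaining library of that group was assumed to vary like the other groups.

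*NVE2283*, also a GPCR gene with no family named, differed least between the tissues. In the late planula it had 24.6, 26.2 and 18.7 CPM in the apical replicates, against 12.5, 18.7 and 14.8 CPM in the body replicates. In the mid-planula it had 26.3 and 29.2 CPM in the apical tissue, against 17.0 and 11.9 CPM in the body. Late planula apical replicate 3 was just below late planula body replicate 2, so the tissues overlapped in the late planula, while the mid-planula libraries did not overlap. It averaged 24.99 ± 3.89 CPM over the apical libraries, against 14.98 ± 2.92 CPM over the body libraries (SD, n = 5 each).

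The log2 fold change of *NVE2283* was 0.74 (standard error 0.20, 95% confidence interval 0.31 to 1.17, adjusted p = 0.0283, edgeR), and 9.99% of all tested genes had a larger one. The call was lost without late planula apical replicate 1 (adjusted p = 0.0605) or 2 (0.0532), mid-planula apical replicate 1 (0.0592) or 2 (0.0782), late planula body replicate 1 (0.0597) or 3 (0.0659), or mid-planula body replicate 2 (0.0736), all from edgeR. The log2 fold change was then 0.66 to 0.74. Taken alone, neither stage gave a call, with an adjusted p of 0.173 in the late planula and 0.13 in the mid-planula (edgeR).

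By stage, 2 of the 4 receptor genes, *NVE334* and *NVE1550*, were called in the late planula, where 4.61% of all tested genes were called higher, and the same 2 in the mid-planula, where 1.75% were. All 4 had an unadjusted p-value under 0.05 at each stage, as had 4810 of the 21683 tested genes in the late planula and 3020 in the mid-planula. Over the pooled tissues, 3 of the 4 had apical levels wholly above the body levels, as had 5.42% of all tested genes. The same held for 3 of 4 in the late planula (11.7% of all tested genes) and 4 of 4 in the mid-planula (19.9%).

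**Figure D2:**
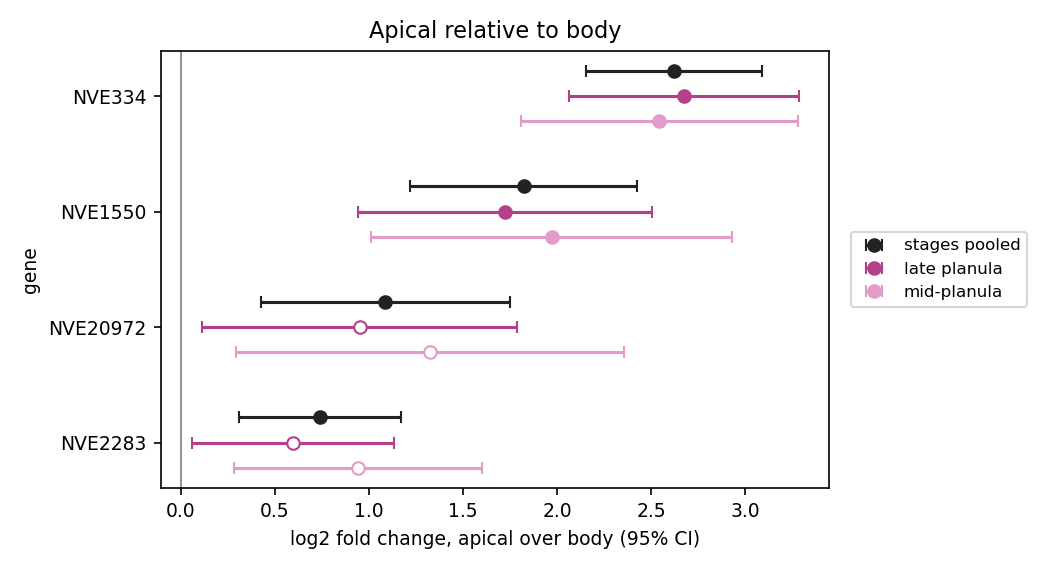
Log2 fold change of the apical tissue over the body (horizontal axis) for each receptor gene, with its 95% confidence interval, from the pooled libraries, the late planula and the mid-planula. Filled points passed an adjusted p-value of 0.05 in edgeR's quasi-likelihood test. *NVE334* (2.62 in the pooled libraries) and *NVE1550* (1.82) are filled in all 3 comparisons, and *NVE20972* (1.09) and *NVE2283* (0.74) in the pooled one.

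Whether the receptor genes differed from each other in how apical they were was asked within each library, by the log2 CPM of one gene minus that of another. Gene length cancels when this difference is compared between the tissues. The apical and body libraries were compared by a two-sided exact permutation test over all assignments of 5 and 5 libraries, with Benjamini-Hochberg adjustment over the 6 pairs of genes. The apical enrichment of *NVE334* exceeded that of *NVE20972* by 1.49 on the log2 scale (95% permutation interval 0.94 to 2.02) and that of *NVE2283* by 1.85 (1.29 to 2.40), and that of *NVE1550* exceeded that of *NVE2283* by 1.14 (0.66 to 1.74). Each of these 3 pairs had p = 0.00794 in the exact permutation test, the smallest the design allows, and an adjusted p of 0.0159. The smallest p-value already means that the within-library differences did not overlap between the tissues in these pairs. For *NVE334* minus *NVE20972* they were 1.49 to 1.96 in the apical and -0.47 to 0.90 in the body libraries. How many pairs among all tested genes would pass was not counted.

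Neighbours in the order of enrichment were less clearly apart. *NVE334* exceeded *NVE1550* by 0.70 (permutation interval 0 to 1.42), which did not pass (exact permutation test, adjusted p = 0.0857), although it passed when late planula body replicate 1, the library in which *NVE1550* was lowest, was left out (difference 0.92, adjusted p = 0.0238, exact permutation test). *NVE20972* lay below *NVE1550* by a difference of -0.79 (interval -1.44 to -0.12, adjusted p = 0.0476, exact permutation test), and this passed in only 2 of the 10 sets that leave out a library, namely those without late planula apical replicate 1 (0.0476) or mid-planula body replicate 2 (0.0238). In the other sets the adjusted p was 0.0714 to 0.0857. It also did not pass with a smaller prior count in log2 CPM (adjusted p = 0.0595, exact permutation test) or when tissues were exchanged only within a stage (adjusted p = 0.05, exact permutation test). *NVE20972* and *NVE2283* differed by 0.36, with an interval of -0.25 to 0.95 that leaves room for a difference in either direction (adjusted p = 0.19, exact permutation test).

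**Figure D3:**
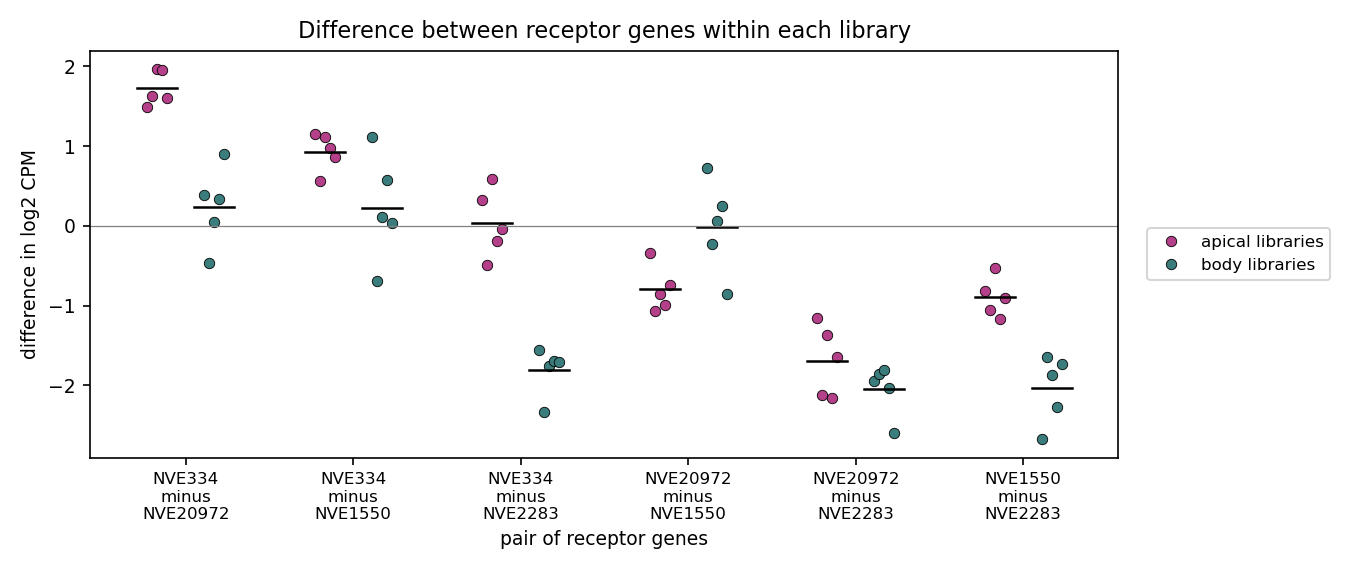
Difference in log2 CPM between each pair of receptor genes within a library (vertical axis), for the 5 apical and the 5 body libraries, with the mean of each tissue as a line. A gap between the tissues means that the apical enrichment of the 2 genes differs, and it is widest for *NVE334* minus *NVE2283* (1.85) and *NVE334* minus *NVE20972* (1.49).

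None of the 4 receptor genes was called between late and mid-planulae in either tissue. In the apical tissue 0 of 4 passed edgeR's test, where 2.1% of all tested genes were called, and in the body 0 of 4 passed, where 2.64% were. No receptor gene had an unadjusted p-value under 0.05 for age, against 3544 (apical) and 3777 (body) of the 21683 tested genes. The DESeq2 Wald test and limma-voom called 0 of 4 as well, where the Wald test called 1488 (apical) and 1756 (body) genes. With such shares over all genes, 0 of 4 does not set the receptor genes apart. *NVE334* averaged 25.9 ± 6.43 CPM in late (SD, n = 3) and 25.6 ± 3.82 CPM in mid-planula apical tissue (SD, n = 2), a log2 fold change of 0.01 with a 95% confidence interval of -0.61 to 0.64. In the body its means were 4.05 ± 0.353 CPM in late (n = 3) and 4.38 ± 1.13 CPM in mid-planulae (n = 2).

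The intervals of the other genes were wider. For *NVE1550* the log2 fold change with age was -0.05 (95% confidence interval -0.89 to 0.78) in the apical tissue and 0.20 (-0.67 to 1.07) in the body. For *NVE20972* it was 0.09 (-0.83 to 1.01) in the apical tissue and 0.47 (-0.48 to 1.42) in the body. With 3 and 2 libraries, the data leave room for changes within these intervals. Of the 4, *NVE2283* had the largest apical difference with age, at -0.26 (-0.85 to 0.34), with 23.2 ± 3.97 CPM in late (n = 3) and 27.7 ± 2.06 CPM in mid-planula apical tissue (n = 2). Its apical libraries lay at 18.7 to 26.2 CPM in late and at 26.3 to 29.2 CPM in mid-planulae, so the ranges nearly met. This difference did not pass (unadjusted p = 0.366, adjusted p = 0.709, edgeR).

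The interaction of stage and tissue, which asks whether the apical to body ratio itself changed with age, was called for 0 of 4 receptor genes and for 0.0231% of all tested genes. On the log2 scale, the late planula ratio minus the mid-planula ratio was 0.13 for *NVE334* (95% confidence interval -0.78 to 1.04), -0.25 for *NVE1550* (-1.46 to 0.96), -0.38 for *NVE20972* (-1.69 to 0.94) and -0.35 for *NVE2283* (-1.19 to 0.50). Of the 4, 0 had an unadjusted p-value under 0.05 for it in edgeR's test, as against 875 of the 21683 tested genes, so a count of 0 is no result about these genes. The DESeq2 Wald test and limma-voom also called 0 of 4.

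**Figure D4:**
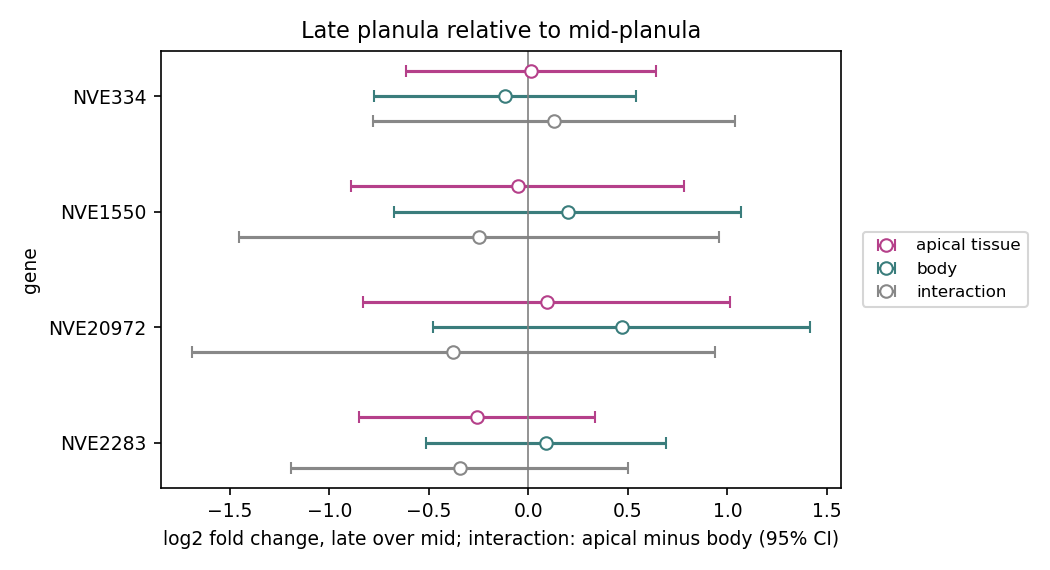
Log2 fold change of late over mid-planulae (horizontal axis) within each tissue, and the difference between the tissues (interaction), for each receptor gene with its 95% confidence interval. All points are open, as no comparison passed an adjusted p-value of 0.05 in edgeR's test, and every interval includes 0, from -1.69 at the lowest to 1.42 at the highest bound.

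Splitting the sum of squares of log2 CPM over the 10 libraries gave the share that each factor held. The tissue held 97.0% of it for *NVE334*, 86.1% for *NVE1550*, 71.5% for *NVE2283* and 63.1% for *NVE20972*, against a median of 12.6% over all tested genes, and the choice of apical genes favours a high share. Stage within tissue held 0.0592%, 0.0348%, 5.10% and 7.24% in the same order of genes. The shares add up to the whole, so a high tissue share leaves little for stage and replicates, and nothing is read from the low stage shares. The rest lay between replicates and was largest for *NVE20972*, at 29.7%. These shares are descriptions over the same libraries and carry no test.

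For the replicate spread, edgeR draws the estimate of each gene toward the trend of genes at its level. Closeness to that trend is thus partly built in, and nothing is read from it. edgeR's estimate of the biological coefficient of variation was 24.7% for *NVE334*, 33.6% for *NVE20972*, 30.7% for *NVE1550* and 23.3% for *NVE2283*, against 28.7%, 34.9%, 31.98% and 27.4% for the trend at their abundance. In the late planula body, *NVE1550*, *NVE20972* and *NVE2283* each had their lowest value in replicate 1 and their highest in replicate 2. *NVE334* did not follow, with its lowest late planula body value in replicate 2. Late planula body replicate 1 had 16702779 counts, replicate 2 had 19553013 and replicate 3 had 27730410. The deepest library, replicate 3, was thus not the one with the highest values. The part of depth in this order was not tested.

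In the apical libraries the order of *NVE334* was the same as that of the summed larva-specific neuron markers (*NVE14902*, *NVE4712* and *NVE8226*), an order noticed after the values had been seen. These 3 markers summed to 3248, 1018 and 1704 CPM in late planula apical replicates 1, 2 and 3 and to 1120 and 1921 CPM in mid-planula apical replicates 1 and 2. Both the marker sum and *NVE334* were highest in late planula replicate 1 and lowest in late planula replicate 2. Of the 3 markers, *NVE8226* taken by itself had another order, with its lowest apical value, 238 CPM, in mid-planula replicate 1. The summed tuft markers had another order, with their lowest apical value, 737 CPM, in late planula replicate 3. The sums of gland cell types 2 and 3 were also lowest in late planula replicate 2 (134 and 112 CPM), though highest in mid-planula replicate 2 (360 and 167 CPM). The match was thus picked from several marker sums. How many of all tested genes share the order of the neuron marker sum was not counted. *NVE20972* differed from this order only in its 2 lowest libraries, *NVE1550* was highest in mid-planula replicate 2, and *NVE2283* had its lowest value in late planula replicate 3. In the body, where the neuron markers summed to 86.5 to 168 CPM, none of the 4 genes followed the marker order. The part of larva-specific neurons in the levels of these genes was not tested.

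The receptor genes remained well detected in the body. The mean body level was 16.2% of the apical level for *NVE334*, 28.1% for *NVE1550*, 46.9% for *NVE20972* and 59.9% for *NVE2283*. For the 6 apical tuft markers the same share was 0.247% to 12.1%, for the 3 larva-specific neuron markers 3.57% to 12.2%, and for the 6 markers of gland cell types 1 to 3 it was 5.70% to 26.3%. *NVE334* thus lay within the range of these gland cell markers and above all 9 tuft and neuron markers. The other 3 genes lay above every one of these tuft, neuron and gland cell markers. The study describes gland cell type 3 as present throughout the larva, though its markers here, *NVE23674* and *NVE23675*, were at 19.0% and 17.1%. Of the apical neuropeptide genes, *NVE226* (PRGamide) was at 28.1%, level with *NVE1550*, and *NVE3755* at 19.8%, above *NVE334*. The 6 tuft markers summed to 737 to 1078 CPM in the apical and 37.1 to 51.7 CPM in the body libraries.

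**Figure D5:**
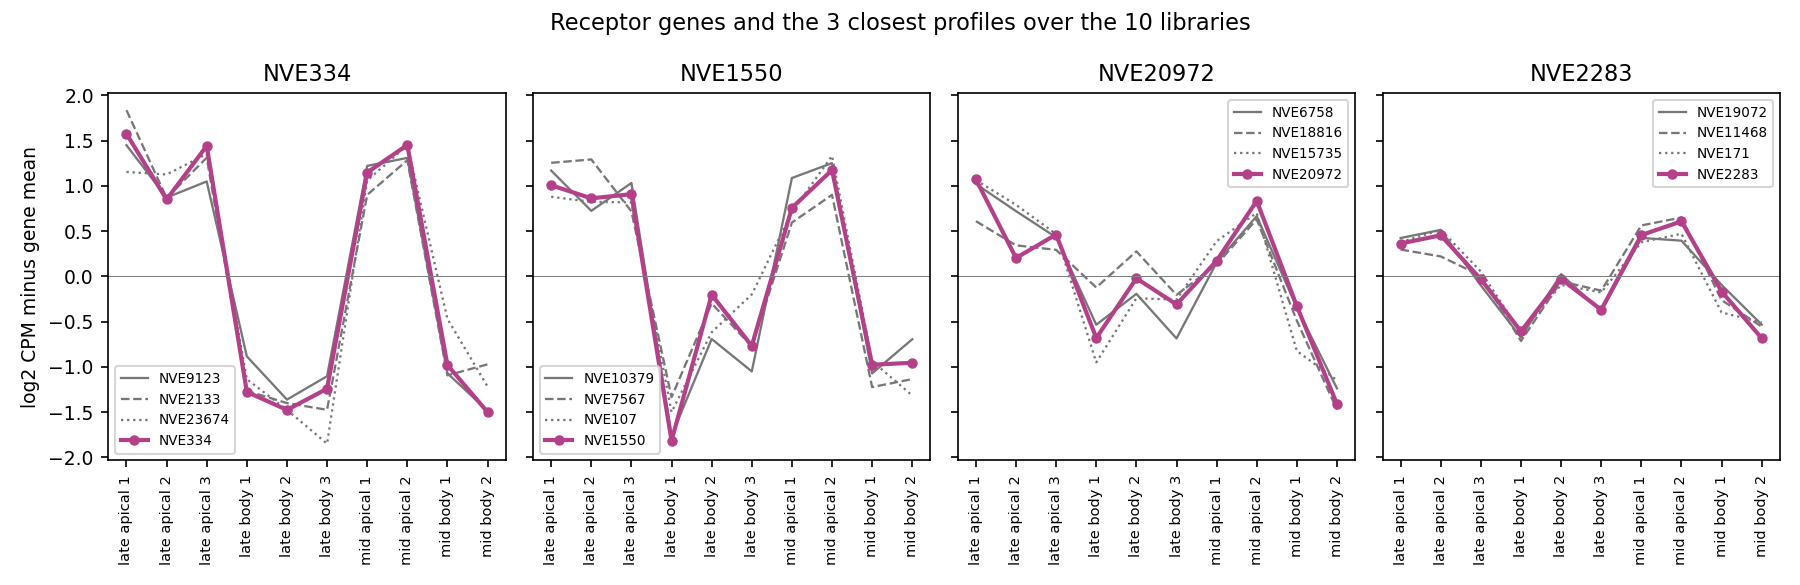
Log2 CPM of each receptor gene minus its mean over the libraries (vertical axis), in the apical and body libraries of late and mid-planulae, with the 3 tested genes of the closest profile. The curves of a panel lie within a root mean square difference of 0.097 to 0.32 of the receptor gene, and *NVE334* spans the widest range between the tissues.

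The genes with the most similar profile were sought by the root mean square difference of log2 CPM over the 10 libraries, with each gene centred on its mean. Closest to *NVE334* were *NVE9123* (0.20), *NVE2133* (0.23) and *NVE23674* (0.32), of which *NVE23674* is one of the gland cell type 3 markers used here. *NVE9123* averaged 46.1 ± 7.09 CPM over the apical libraries, against 8.91 ± 1.48 CPM over the body libraries (SD, n = 5 each). Closest to *NVE1550* were *NVE10379* (0.24), *NVE7567* (0.27) and *NVE107* (0.28), and closest to *NVE20972* were *NVE6758* (0.23), *NVE18816* (0.27) and *NVE15735* (0.29). *NVE2283* had the nearest matches, with *NVE19072* at 0.097, *NVE11468* at 0.12 and *NVE171* at 0.13. The median distance of all tested genes was 1.45 from *NVE334*, 1.17 from *NVE1550*, 0.91 from *NVE20972* and 0.72 from *NVE2283*. *NVE2283* thus lay closer to the tested genes in general, and nothing is read from its near matches.

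The 4 receptor genes were not each other's closest matches. The distance includes the size of the tissue difference, which differed between them, so this and the unequal ranks below are descriptions only. The smallest distance among them was 0.39, between *NVE20972* and *NVE2283*, and *NVE2283* ranked 84 among the 21682 other genes by closeness to *NVE20972*, while *NVE20972* ranked 1547 by closeness to *NVE2283*. *NVE334* and *NVE1550* lay 0.57 apart, at rank 104 from the side of *NVE334* and 285 from that of *NVE1550*. The 2 rhodopsin-family genes were 0.82 apart, with *NVE20972* at rank 530 from the side of *NVE334* and *NVE334* at rank 8131 from the side of *NVE20972*.

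For comparison, 4 other GPCR genes were taken that an earlier account of these data had given as lower in the apical tissue. By the annotation on the heatmap these are *NVE20518*, with no named ligand, the dopamine receptor genes *NVE19409* and *NVE3835*, and the metabotropic glutamate receptor gene *NVE2150*. Dopamine and glutamate act as transmitters in bilaterian nervous systems. The choice used these libraries, and 4 of 4 were lower in the apical tissue (edgeR), as were 6.01% of all tested genes. The body-enriched *NVE20518* had 0 to 35 counts per apical library against 91 to 342 in the body, whereas *NVE334* kept 58 counts or more in every body library. With age, 0 of these 4 passed in either tissue (edgeR), where 2.1% (apical) and 2.64% (body) of all tested genes passed. Their median log2 fold change with age in the body was 0.97, against 0.14 for the apical receptor genes and -0.01 for all tested genes, and the difference between the lists was not tested.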

How the data were processed

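SENSE mRNA-Seq libraries of microdissected apical and body tissue were sequenced from both ends. The authors removed adapters with Trimmomatic (version 0.36), aligned reads with STAR and counted them over NVE gene models with HTSeq-count (version 0.6). The deposited values are raw counts, with a file for each library. The genome build, the strand setting and the counting of overlapping, antisense or near-identical gene models are not given in the sources used here, so counts of such genes are uncertain. A median of 75.0% of the counts from 1 to 20 were even in a library, so halved counts were tried as well.

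Groups came from the sample labels. Counts were tested with edgeR 4.0.16 (limma 3.58.1, R 4.3.3) with TMM factors (0.742 to 1.27), filterByExpr (minimum count 10, minimum total 15) over the 4 groups, and Benjamini-Hochberg adjustment, called under 0.05. The stages were pooled without covariates, and all other comparisons came from one fit of 4 groups. Standard errors are the log2 fold change over the root of F. Log2 CPM used a prior count of 2. The p-values measure the spread between pools of larvae. Chi-square over its degrees of freedom was 31.3 to 107 between replicates, so none repeated another. The tests were run on simulated counts first.

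Alternatives were other normalisations, limma-voom, the Wald test of DESeq2 1.42.0, other filters, halved counts, stage as a covariate, the compared stage or tissue alone, a replicate block, and leaving out each library. Leaving out a mid-planula library where its group then holds 1 was added after the data had been seen. The genes, lists and tests were chosen with earlier results of these data known. Genes named are the 4 receptor genes, 4 other GPCR genes, 5 neuropeptide genes, cell markers, and the 3 closest profiles of each receptor gene. The other GPCR genes, the neuropeptide genes and the markers of gland cell types 1 to 3 were taken from an earlier account of these data, with the receptor and peptide annotations printed on the study's heatmap. Of the 25729 gene models, 0 matched a RefSeq entry, so no coordinates, lengths or sequences are given, and levels are not compared between genes.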

Additional observations from a re-analysis of the deposited data

How the results depend on the processing

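*NVE334* kept its direction and its call between the tissues under all alternatives in the pooled libraries and at both stages, with a pooled log2 fold change of 2.55 to 2.73. *NVE1550* did so in the pooled libraries (1.66 to 2.05) and in the late planula. No alternative other than leaving out a library changed a tissue call of a receptor gene, and halving the counts changed none. Leaving out each library gave 2 to 4 receptor genes called in the pooled libraries and 1 to 2 in the mid-planula, while the late planula number stayed at 2.

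Deviations from the group means were correlated between same-numbered libraries to see whether the numbers pair them. The correlation was 0.235, 0.490 and -0.0918 for late planula replicates 1, 2 and 3. In the mid-planula it was 0.155, which groups of 2 libraries force to be the same for both replicates. Deviations in groups this small cannot settle pairing. As the labels do not state it, the libraries were not taken as pairs in the main tests. With the replicate block, 4313 genes were called in the pooled libraries (2482 without it) and 45 in the interaction (5 without it), and no call of a receptor gene changed. With sign changes of the 5 same-numbered pairs as a replicate block, 0 of 6 gene pairs passed, where 4 did in the main test, since the smallest p-value of that test is above the threshold.

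Over all tested genes, the DESeq2 Wald test called 1484 in the mid-planula (931 in edgeR), 1488 with age in the apical tissue (455), 1756 with age in the body (572) and 110 in the interaction (5). limma-voom called 1063 with age in the body and 1 in the interaction. Requiring 10 counts in every library gave 596 calls in the mid-planula and 3 in the interaction, no filter gave 10 in the interaction, and fitting the apical tissue alone gave 292 with age. Leaving out a library gave 1366 to 2248 calls in the late planula, 419 to 1051 in the mid-planula, 0 to 672 with age in the apical tissue, 0 to 779 with age in the body and 0 to 53 in the interaction. The 0 calls with age came without mid-planula apical replicate 1 or body replicate 2, where 2731 and 2613 genes had an unadjusted p-value under 0.05 in edgeR. The causes were not tested.

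Differences with age near 0 changed sign, none of them called. For *NVE334* in the apical tissue limma-voom gave -0.011, and leaving out a library gave -0.13 to 0.26. In the same fits *NVE20972* ranged from -0.21 to 0.46 and *NVE1550* from -0.25 to 0.17 in the apical tissue. In the body *NVE334* ranged from -0.36 to 0.17, *NVE1550* from -0.21 to 0.52 and *NVE2283* from -0.15 to 0.37. The interaction ranged from -0.16 to 0.38 for *NVE334*, -1.05 to 0.072 for *NVE20972* and -0.57 to 0.16 for *NVE1550*.

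Depth does not limit detection here, as the lowest count of a receptor gene in any library was 26. The parts of depth and of the number of libraries in the precision were not tested.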

Other observations

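The 5 neuropeptide genes examined form a further set of signalling genes in the same libraries, chosen with earlier results of these data known. *NVE9858* (LWamide) was higher in late than in mid-planulae, with a log2 fold change of 1.81 in the apical tissue (standard error 0.37, adjusted p = 0.0302, edgeR's quasi-likelihood test) and 1.61 in the body (standard error 0.35, adjusted p = 0.0316, edgeR). Its levels were 5.73 to 12.4 CPM in late and 2.02 to 2.67 CPM in mid-planula apical tissue. In the body they were 37.0 to 42.2 CPM in late and 10.2 to 15.4 CPM in mid-planulae. The apical call is lost without mid-planula apical replicate 1, and the body call without mid-planula body replicate 2. These fits leave a single mid-planula library in the group and lost the calls of other genes as well, so the loss is not particular to *NVE9858*. The other 4 (*NVE226*, *NVE3755*, *NVE15069* and *NVE7549*) were not called with age in either tissue, and neither were the 4 receptor genes. *NVE7549* (Antho-RFamide) had the largest uncalled difference with age, at 1.80 in the body (adjusted p = 0.0569, edgeR). *NVE3755* is the identifier printed for RPamide III on the study's heatmap, while its text gives a different identifier for that peptide, so which peptide *NVE3755* encodes is uncertain. The pairing of any of these peptides with any of these receptors was not examined.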
